A study of Homo sapiens with 10 samples.

Results

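Peaks of N6-methyladenosine (m6A), a methyl mark on adenosines inside RNA, were examined in 10 genes for chromatin regulators across 5 human colon cancer cell lines. The genes were ARID1A, ARID1B, KMT2C, KMT2D, CREBBP, EP300, KDM6B, SETD1B, CHD6 and DIDO1. A peak belonged to a gene when its summit lay inside a fixed hg19 span of that gene, given to the nearest 1 kb, and 193 of 37417 peaks on chromosomes 1 to 22, X and Y did so. Overlapping peaks of the lines were merged into regions, of which 79 of 22315 lay in these genes. The genes were picked from peak lists that had already been seen, so the number of peaks they hold, and how often the lines share those peaks, describes them and tests nothing.

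Total RNA was broken into short fragments, those carrying m6A were pulled down with an antibody, and they were sequenced beside an input set aside before enrichment. The labels give colon for COLO205 and COLO320DM, and colorectum for HCT15, HCT116 and HT29. All are untreated, established tumour lines, and each has 1 immunoprecipitation (IP) library and 1 input. No replicate spread exists for any line, so every difference below is one between these libraries. The IP libraries ranged from 1.38 M (mega) reads in HCT116 to 5.02 M in HCT15, as recovered from the peak lists, with COLO320DM at 1.47 M, HT29 at 2.13 M and COLO205 at 2.99 M. The HCT15 list was far shorter than the others, with 905 peaks against 8638 to 9835, and the other 4 are called the long lists.

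m6A is written on nascent transcripts by a methyltransferase complex built around METTL3 and METTL14. It is known to gather in unusually long internal exons and near stop codons, and it is read by YTH-domain proteins that shorten the life of the transcript or affect its translation. The genes here encode very large nuclear proteins. ARID1A and ARID1B are alternative DNA-binding subunits of the SWI/SNF (BAF) complex, which slides and evicts nucleosomes. KMT2C, KMT2D and SETD1B methylate lysine 4 of histone H3, the first pair mainly at enhancers and SETD1B at promoters. KDM6B removes methyl groups from lysine 27 of histone H3. CREBBP and EP300 are paralogous acetyltransferases that act as coactivators. CHD6 is a chromodomain helicase, and DIDO1 carries a PHD finger that binds methylated histone H3. The exons of these genes were not located, because no hg19 annotation was used here, so the positions below are distances within the spans.

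All 10 genes held at least 1 peak in each of the 4 long lists. COLO320DM had 62 peaks in the genes, HCT116 had 60, COLO205 had 37, HT29 had 33 and HCT15 had 1. As a share of the list this was 0.718% for COLO320DM (exact 95% interval 0.551% to 0.919%), 0.652% for HCT116 (0.498% to 0.838%), 0.376% for COLO205 (0.265% to 0.518%), 0.374% for HT29 (0.257% to 0.524%) and 0.110% for HCT15 (0.00280% to 0.614%). These intervals cover counting error only. They take each peak as independent, though many lay close together in the same gene, so whether they overlap is no test between lines. The intervals of COLO320DM and HT29 did not overlap, nor did those of COLO320DM and COLO205, while that of HCT116 overlapped all 4 of the others. Among the strongest 905 peaks of each list, as many as HCT15 holds, the share was 1.22% in COLO320DM (0.608% to 2.16%). It was 0.994% in COLO205 (0.456% to 1.88%) and 0.663% in HT29 (0.244% to 1.44%). These intervals overlap, but they rest on 11, 9 and 6 peaks and are wider. Their overlap therefore does not show that the shares drew closer. The single HCT15 peak was in DIDO1.

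KMT2D had the most unequal counts, with 10 peaks in HCT116 and 9 in COLO320DM against 2 in HT29 and 3 in COLO205. SETD1B had 8, 8, 3 and 3 in the same order and ARID1A had 8, 6, 3 and 4. DIDO1 had 9, 6, 3 and 3, and ARID1B had 6, 9, 3 and 3. Counts were nearly level in EP300, with 5 in HCT116 and HT29 and 6 in COLO320DM and COLO205, and equal in KDM6B, with 2 in each. In 6 of the genes HCT116 or COLO320DM had more peaks than either HT29 or COLO205, and in the other 4 the highest counts were equal.

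**Figure D1:**
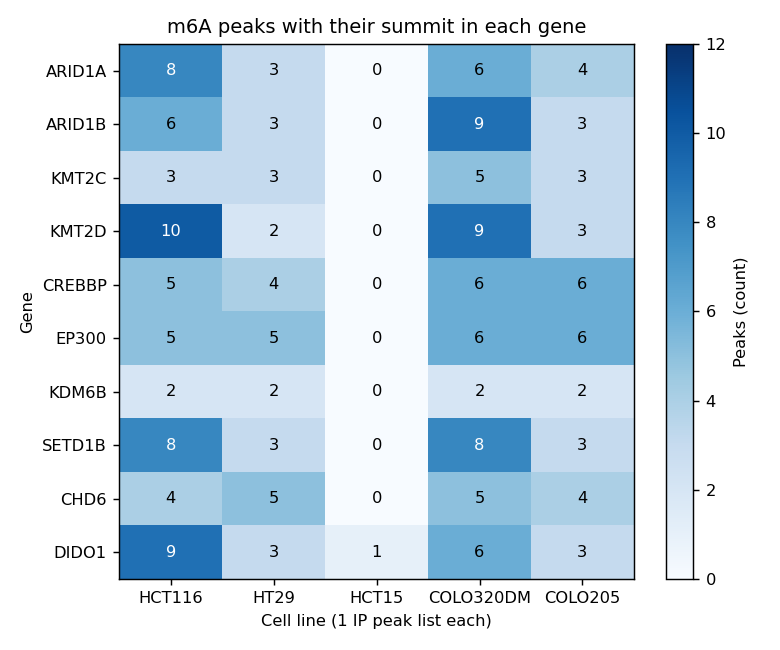
Number of m6A peaks with their summit in each gene (rows) in each of the 5 cell lines (columns, 1 IP peak list each), with darker cells for higher counts. KMT2D, SETD1B, ARID1A, ARID1B and DIDO1 hold more peaks in HCT116 and COLO320DM than in HT29 and COLO205, and the only HCT15 peak is in DIDO1.

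Peaks of these genes stood on RNA that was also seen in the input. A peak is called input-covered here when its local background reached at least 1 input fragment, within a tolerance of 0.005, a value recovered from the authors' fold and −log10 p. This held for 62 of 62 peaks in COLO320DM (exact 95% interval 94.2% to 100%), where 62.2% of the whole list was input-covered. It held for 56 of 60 in HCT116 (83.8% to 98.2%), against 58.0% of the list, and for 30 of 33 in HT29 (75.7% to 98.1%), against 38.7% of the list. In COLO205 it held for 32 of 37 (71.2% to 95.5%), against 51.5% of the list. With 1 threshold of local input per M reads for all lines, the share of the genes' peaks was 16.2% in COLO205. It was 81.8% in HT29, 90.0% in HCT116 and 95.2% in COLO320DM. The shares of the whole lists at that threshold were not computed, so the 16.2% cannot be set against the 51.5%. The DIDO1 peak of HCT15 was input-covered, which 20.1% of that list was. The other 12 member peaks lay in KMT2C (6), ARID1B (2), CREBBP, EP300, SETD1B and CHD6.

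The genes' peaks had folds close to those of other peaks. The fold is the authors' ratio of signal at the summit over the local background, with a pseudocount of 1. Its median over the genes' peaks was 4.75 in COLO320DM, 5.38 in HCT116, 5.48 in HT29 and 6.86 in COLO205. Over the input-covered peaks outside these genes it was 5.47, 5.57, 5.48 and 5.80 in the same order. The median IP read count at the summit was 26, 19.5, 19 and 13 in the genes and 18, 17, 17 and 16 in those other peaks. Peaks resting on fewer than 5 reads were limited to 3 of HCT116, of which 2 were in KMT2C and 1 in CHD6.

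The lines shared regions of these genes often. Of the 79 regions, 23 were held by all 4 long lists, or 29.1% (exact 95% interval 19.4% to 40.4%). Among all merged regions this share was 6.87%, and among regions whose peaks were mostly input-covered it was 14.0%. A further 25 of the 79 were in 1 list alone, or 31.6%, against 64.0% of all regions and 53.3% of the mostly input-covered ones. EP300 had 5 of its 6 regions in all 4 long lists and KDM6B had 2 of 2. KMT2D had 1 of 11, KMT2C 1 of 9, ARID1B 2 of 11 and DIDO1 2 of 10. ARID1A and CHD6 had 3 each, of 8 and 7 regions, and CREBBP and SETD1B had 2 each, of 7 and 8.

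**Figure D2:**
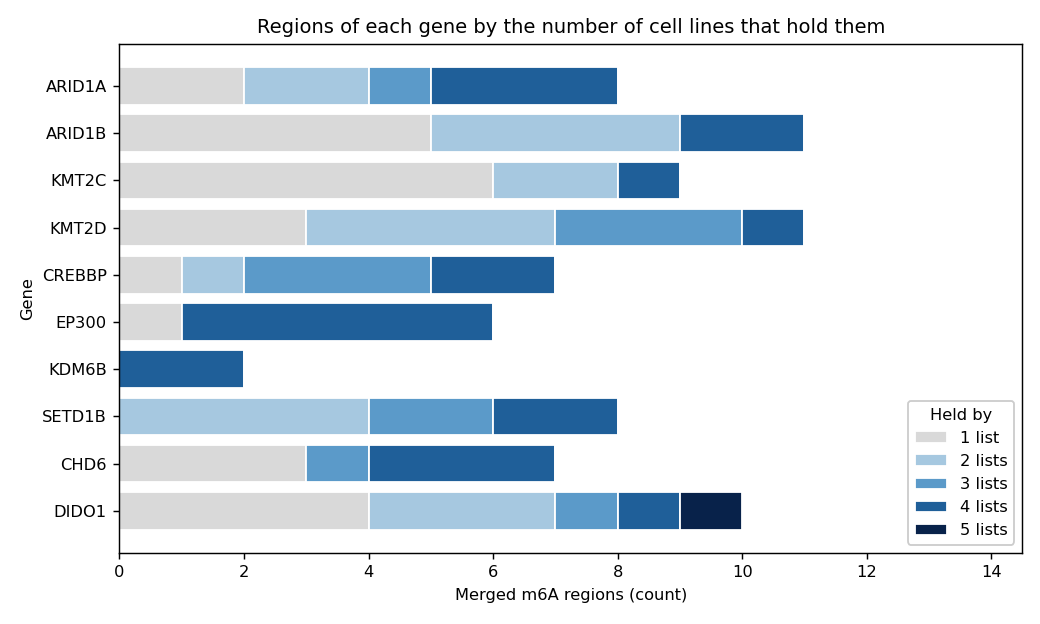
Merged m6A regions of each gene (bar length, count), divided by the number of cell lines whose list holds the region. EP300 and KDM6B consist almost wholly of regions in 4 lists, and the only region in all 5 lists is in DIDO1. KMT2C has 6 of 9 regions in 1 list and ARID1B 5 of 11, against 64.0% of all regions and 53.3% of the mostly input-covered ones.

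Pairs of lines shared these genes' regions in other proportions than the lists as a whole. HCT116 and COLO320DM alone held 15 of the 79 regions, or 19.0%, against 4.70% of all regions. Of these 15, KMT2D and SETD1B had 4 each, ARID1B had 3, and ARID1A and DIDO1 had 2 each. HT29 and COLO205 alone held 0 of the 79, which allows a share of up to 3.80% (3 regions of the 79), against 5.94% of all regions. That limit treats neighbouring regions as independent and is no test of these genes. For both pairs the comparison is with all regions, of which 41.9% were mostly input-covered, against 89.9% of the genes' regions. The shares of these pairs over mostly input-covered regions alone were not computed. Of the 33 HT29 regions in these genes, COLO320DM held 31, or 93.9% (exact 95% interval 79.8% to 99.3%), while it held 58.3% of the mostly input-covered HT29 regions. COLO205 held 25 of the 33, or 75.8% (57.7% to 88.9%), against 72.7% of the mostly input-covered HT29 regions. In the other direction HT29 held 25 of the 36 COLO205 regions, or 69.4% (51.9% to 83.7%), against 48.9%. HCT116 held 47 of the 62 COLO320DM regions, or 75.8% (63.3% to 85.8%), against 56.2%. Regions outside the 23 had peaks of lower −log10 p. The median −log10 p of HCT116 peaks was 14.3 in the 23 regions of all 4 long lists and 9.08 in its 36 other regions, and in COLO320DM these were 16.7 and 9.96.

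Beside this, HT29 and COLO205 had fewer reads over the regions that every long list held. The median number of IP reads in the 23 regions was 33 in COLO320DM, 25 in HCT116, 19 in HT29 and 17 in COLO205. At the 15 regions of HCT116 and COLO320DM alone the medians were 18 reads in HCT116 and 24 in COLO320DM. The part of read number in the absence of peaks from HT29 and COLO205 was not tested.

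Neighbouring regions lay close together. Of the 79 regions, 53 had another region within 1 kb, or 67.1%, against 41.2% of all regions and 46.1% of the mostly input-covered ones. Runs of 3 or more regions with gaps of at most 1 kb occurred in 9 of the genes, and KDM6B, with 2 regions, could hold none. The longest run, in DIDO1, held 7 regions over 3.09 kb. How often such runs occur over all regions was not computed.

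The direction of transcription was read from the RefSeq promoter table, which lists 8 of the 10 genes and not SETD1B or CHD6. In these 8 genes, 82 of 153 peaks, or 53.6%, had their summit in the last 10% of the span towards the 3′ end, and 16, or 10.5%, in the first 10%. By line the last 10% held 60.0% of COLO205 peaks (exact 95% interval 40.6% to 77.3%), 53.1% in COLO320DM (38.3% to 67.5%), 52.1% in HCT116 (37.2% to 66.7%) and 48.0% in HT29 (27.8% to 68.7%). These intervals overlap throughout. The peaks of the first 10% were all in ARID1B (9) and ARID1A (7). EP300 had 18 of 22 peaks in the last 10% and KMT2D had 3 of 24. The spans contain introns, so a share of the span is not that share of the mRNA.

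**Figure D3:**
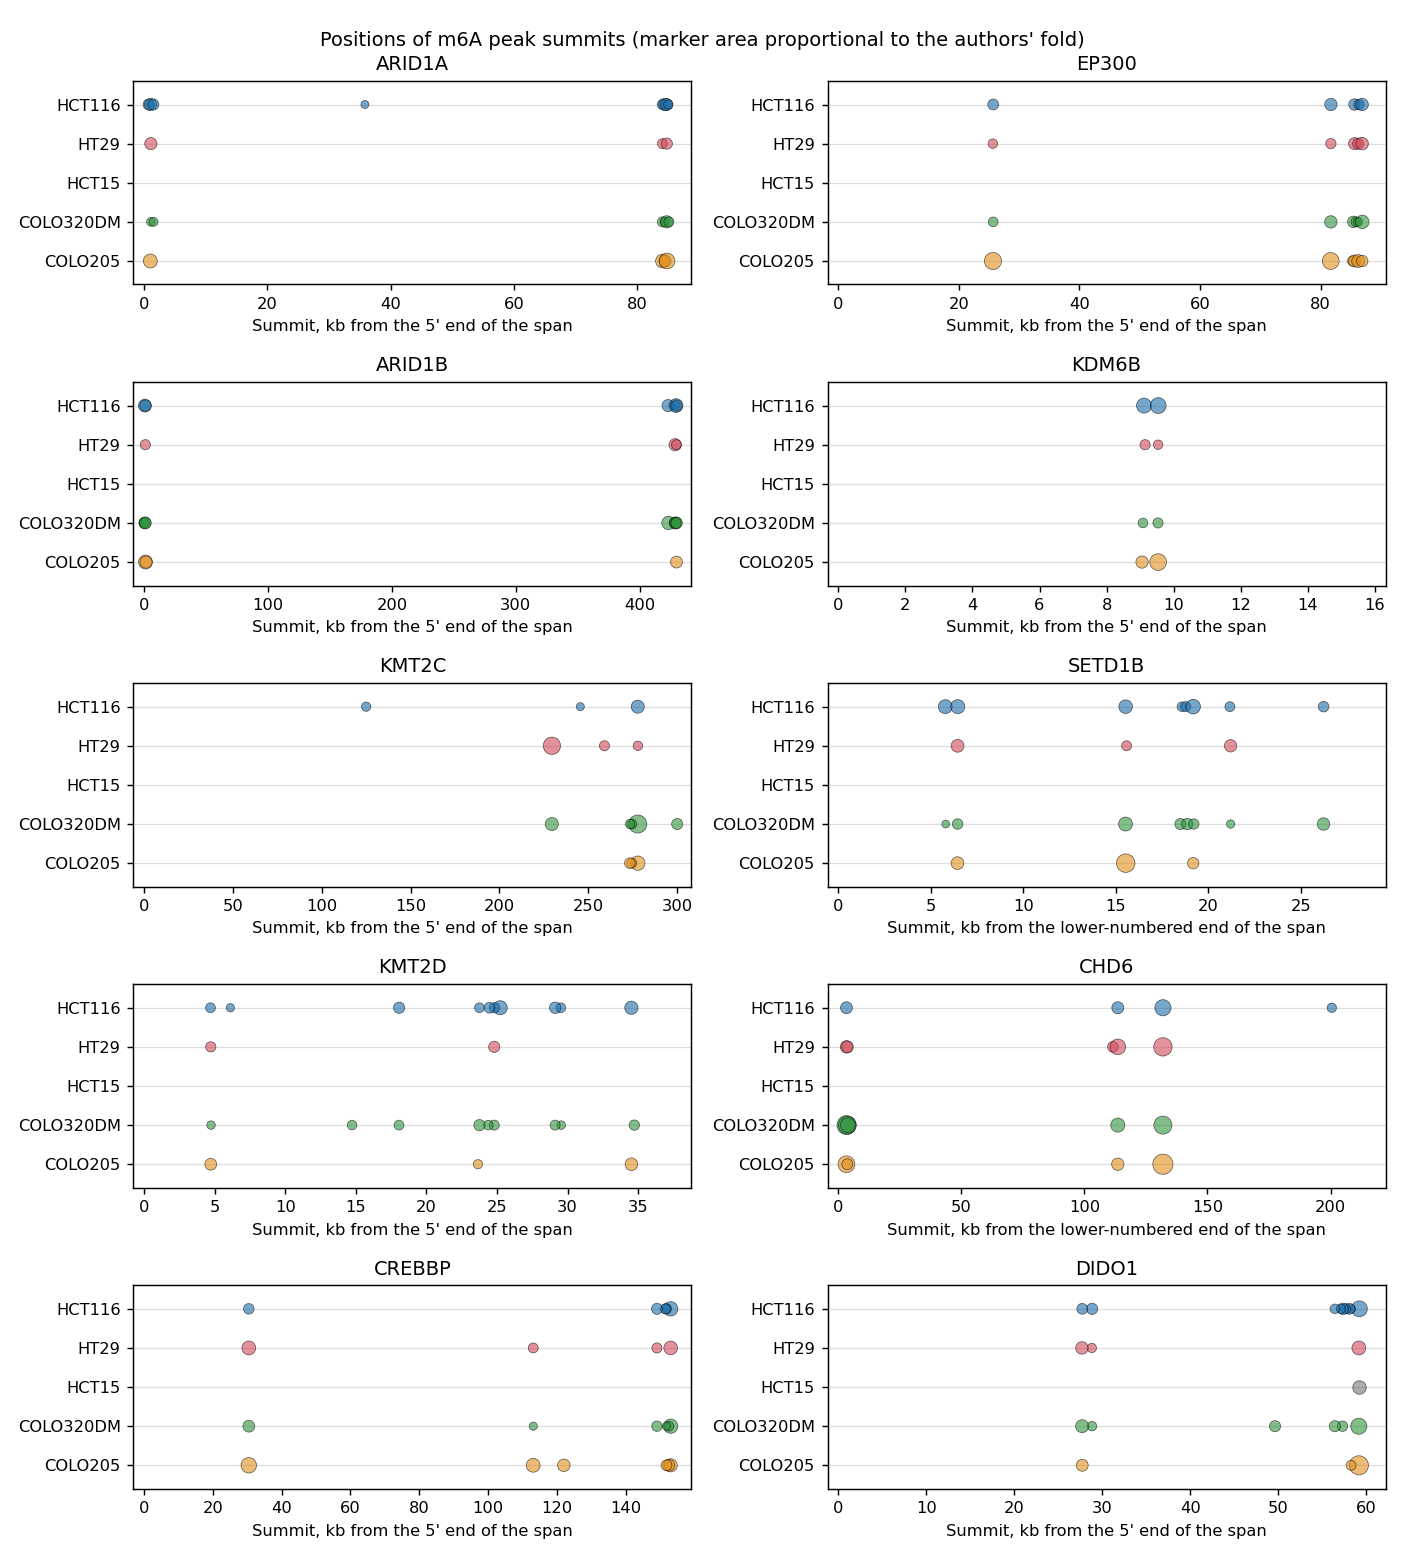
Position of each peak summit in kb along the span of each gene (horizontal axis, from the 5′ end, or from the lower-numbered end for SETD1B and CHD6), by cell line (rows), with marker area proportional to the authors' fold. ARID1A and ARID1B have peaks at both ends of the span, EP300, CREBBP and DIDO1 mostly near the 3′ end, and KMT2D along its whole length.

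The SWI/SNF subunit ARID1A (chromosome 1, 27022001 to 27109000, plus strand) had 8 regions, of which 7 lay in 2 groups at the ends of the span. The first group, from 27022574 to 27023677, held 3 regions, with summits 0.736 to 1.53 kb from the 5′ end. Within it, the region from 27022877 to 27023248 was in all 4 long lists. It had 46 IP reads over 10.0 input fragments in HCT116, 30 over 5.47 in HT29, 45 over 20.0 in COLO320DM and 31 over 5.0 in COLO205. The corresponding folds were 6.57, 6.52, 3.30 and 8.51, so COLO320DM was lowest with nearly the most IP reads and the most input. The second group, from 27105670 to 27107128, held 4 regions with summits 1.89 to 2.95 kb from the 3′ end. Of these, that from 27106684 to 27106919 had folds of 10.9 in COLO205, 6.67 in COLO320DM, 6.40 in HCT116 and 5.56 in HT29. The neighbour from 27105670 to 27106286, the longest of the gene, had 8.10, 4.46, 4.66 and 4.32. COLO205 had the highest fold at all 3 of these ARID1A regions. The peak in mid-gene, from 27057692 to 27057815, was in HCT116 alone, with a fold of 2.83.

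ARID1B (chromosome 6, 157099001 to 157532000, plus strand), the paralog of ARID1A, showed the same layout over a span of 433 kb. Its 5 regions from 157098940 to 157100561 had summits at most 1.53 kb from the 5′ end. The 4 regions from 157527454 to 157528844 had summits 3.20 to 4.43 kb from the 3′ end, and 2 more lay from 157521877 to 157522326. No peak was listed in the 421.3 kb between. The region from 157099858 to 157100162 was in all 4 long lists, with folds of 8.49 in COLO205, 6.02 in COLO320DM, 5.75 in HCT116 and 4.58 in HT29. The region from 157528494 to 157528844 was too, with 6.18, 5.85, 5.67 and 4.37. Strongest here means highest in −log10 p. The strongest ARID1B peak was that of COLO320DM from 157522137 to 157522326, whose 31 IP reads gave a fold of 7.86, and no other line had a peak on it. In HCT116 the strongest was from 157528247 to 157528361, with a fold of 8.43, and in HT29 from 157527530 to 157527614, with a fold of 6.54. COLO205 had its strongest from 157100065 to 157100160, with 11 IP reads over 0.750 input fragments.

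KMT2D (chromosome 12, 49412001 to 49450000, minus strand), an enhancer H3 lysine 4 methyltransferase, had 11 regions over 38 kb, or 1 for every 3.45 kb. A run of 4 regions from 49424715 to 49426529 lay in mid-gene, with 4 peaks in HCT116, 3 in COLO320DM, 1 in HT29 and 1 in COLO205. The strongest HCT116 peak of the gene was there, from 49424715 to 49424820, where 25 IP reads gave a fold of 8.71, and no other list held it. The strongest of COLO320DM was from 49426182 to 49426529, with a fold of 5.51 and 30 reads. HT29 had its strongest from 49425168 to 49425250, with a fold of 5.48 and 18 reads. COLO205 had its strongest near the 3′ end, from 49415377 to 49415536, with a fold of 6.96 and 10 reads. The region of all 4 long lists was from 49445215 to 49445413, 4.70 to 4.74 kb from the 5′ end, with folds of 3.18 in COLO320DM, 4.22 in HCT116, 4.61 in HT29 and 6.14 in COLO205.

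KMT2C (chromosome 7, 151832001 to 152134000, minus strand), its paralog, had 9 regions over 302 kb, of which 6 were in 1 list. The region of all 4 long lists was from 151855996 to 151856162. It had 32 IP reads over 2.0 input fragments in COLO320DM, 13 over 1.0 in COLO205, 11 over 3.0 in HT29 and 8 over 0.323 in HCT116. The folds were 14.4, 9.02, 3.93 and 7.51 in that order, with COLO320DM highest and HT29 lowest. In HT29 the strongest KMT2C peak was another, from 151904419 to 151904503, with a fold of 13.2 and 13 reads over 0.0861 input fragments. COLO320DM had a peak at the same place with a fold of 7.48 and 21 reads over 3.0 input fragments. The HT29 peak was not input-covered. Its 0.0861 is the lowest background of the HT29 list, so these folds rest on unlike backgrounds and do not rank the lines. The HCT116 peaks from 151888417 to 151888491 and from 152008947 to 152009021 rested on 2 and 3 reads, and no other list held them.

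SETD1B (chromosome 12, 122242001 to 122271000), a promoter H3 lysine 4 methyltransferase, had 8 regions over 29 kb, and HCT116 and COLO320DM each held all 8. HT29 and COLO205 each held 3. By −log10 p the region from 122257406 to 122257683 was the strongest SETD1B peak in HCT116, COLO320DM and COLO205, with folds of 8.09, 8.50 and 15.0, and had a fold of 4.30 in HT29. It had 37 IP reads in HCT116, 35 in COLO320DM, 24 in COLO205 and 21 in HT29. The region from 122248310 to 122248575 was also in all 4 long lists and was the strongest of HT29, with a fold of 7.24 there, 8.64 in HCT116, 4.88 in COLO320DM and 7.14 in COLO205. The 3 neighbours from 122260436 to 122261313 had 3 peaks each in HCT116 and COLO320DM, 1 in COLO205 and none in HT29.

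KDM6B (chromosome 17, 7743001 to 7759000, plus strand), the H3 lysine 27 demethylase, had 2 adjacent regions, and both were in all 4 long lists. At the stronger, from 7752376 to 7752749, HCT116 had 37 IP reads over 4.0 input fragments and COLO205 had 32 over 3.07. HT29 had 27 over 9.0 and COLO320DM had 42 over 13.0. The folds were 11.0 in HCT116, 12.2 in COLO205, 3.91 in HT29 and 4.57 in COLO320DM, the first pair above the second. Without the pseudocount, the enrichment in HT29 was 0.232 times that of COLO205 (approximate 95% interval 0.0577 to 0.934), and that of COLO320DM was 0.265 times (0.0704 to 0.997). Both intervals hold the median ratio to COLO205 over all 1000 shared regions with input in each long list, 0.562 for HT29 and 0.569 for COLO320DM. The interval for HCT116 over HT29, 3.43 times, included 1 (0.956 to 12.3). So did that for HCT116 over COLO320DM, 3.01 times (0.902 to 10.0). At the region from 7751890 to 7752216 the folds were 9.83 in HCT116, 6.57 in COLO205, 4.58 in HT29 and 4.05 in COLO320DM.

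The acetyltransferase genes CREBBP (chromosome 16, 3775001 to 3931000, minus strand) and EP300 (chromosome 22, 41488001 to 41577000, plus strand) each had 1 region towards the 5′ end, 30.4 kb from it in CREBBP and 25.6 to 25.7 kb in EP300, and a run of regions near the 3′ end. The run of CREBBP, from 3777682 to 3779488, had summits 2.87 to 4.44 kb from the 3′ end, and that of EP300, from 41573155 to 41574979, had summits 2.09 to 3.69 kb from it.

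In CREBBP, the region from 3777682 to 3778141 was the strongest of HCT116 and COLO320DM, with folds of 9.11 and 8.92, and had 8.18 in HT29 and 7.60 in COLO205. The IP reads were 30, 37, 24 and 15 in the same order. The upstream region from 3900472 to 3900692 was the strongest of HT29 and COLO205, with folds of 8.41 and 10.5, and had 4.90 in HCT116 and 6.15 in COLO320DM. The order of the 2 regions thus differed between lines, and at neither did the enrichment of any pair of lines differ beyond counting error. In EP300, the regions from 41573155 to 41573698 and from 41574730 to 41574979 had folds of 5.76 to 6.32 and of 5.70 to 7.96 over the strongest peaks of the 4 lines, and COLO205 had a weaker second peak in the first, with a fold of 4.42. That from 41569622 to 41569755 ranged from 4.64 in HT29 to 12.3 in COLO205. The COLO205 peak there was not input-covered, with 16 IP reads over 0.682 input fragments. The upstream region from 41513469 to 41513783 was the strongest of COLO205, with a fold of 12.8, against 5.15 in HCT116, 3.91 in HT29 and 4.15 in COLO320DM. There COLO205 had 26 IP reads over 2.0 input fragments and COLO320DM had 30 over 10.0, an enrichment 0.197 times that of COLO205 (approximate 95% interval 0.0395 to 0.982), which holds the median of 0.569 over the 1000 shared regions.

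CHD6 (chromosome 20, 40030001 to 40248000), the chromodomain helicase, held one of the strongest m6A peaks of every long list. Its region from 40161697 to 40162017 had 81 IP reads in HCT116 (exact Poisson 95% interval 64.3 to 100.7), 95 in HT29 (76.9 to 116.1), 97 in COLO320DM (78.7 to 118.3) and 76 in COLO205 (59.9 to 95.1). Its folds were 11.5, 14.8, 14.4 and 17.9. By −log10 p, over all sequences each list names, it ranked 1 of 8832 peaks in COLO320DM, 4 of 9418 in HCT116, 4 of 8941 in HT29 and 6 of 9998 in COLO205, and HCT15 had no peak there. The 4 summits fell within 40161876 to 40161890, 131.9 kb from the lower-numbered end of the span. Near that end, from 40033169 to 40033912, COLO320DM had 3 peaks, HT29 and COLO205 had 2 each and HCT116 had 1. The region of all 4 long lists there, from 40033169 to 40033452, had folds of 6.27 in HCT116, 6.75 in HT29, 12.3 in COLO205 and 16.0 in COLO320DM. The region from 40143492 to 40143625 had 10.7 in HT29, 8.72 in COLO320DM, 6.65 in COLO205 and 6.32 in HCT116.

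DIDO1 (chromosome 20, 61509001 to 61570000, minus strand), the PHD finger gene, had the only member region found in all 5 lists, from 61510537 to 61511209. Its summits lay 1.75 to 1.82 kb from the 3′ end. The IP reads were 92 in HCT116 (exact Poisson 95% interval 74.2 to 112.8), 83 in HT29 (66.1 to 102.9), 84 in COLO320DM (67.0 to 104.0), 86 in COLO205 (68.8 to 106.2) and 75 in HCT15 (59.0 to 94.0). Per M IP reads this was 66.7 in HCT116, 57.0 in COLO320DM, 39.1 in HT29, 28.8 in COLO205 and 15.0 in HCT15. The folds were 11.1, 11.4, 8.48, 16.1 and 7.98 in that order, and the peak ranked 2, 5, 32, 5 and 43 in its list by −log10 p. The HCT15 peak was also the narrowest, at 263 nt against 607 to 673 nt. Upstream of this region, 6 more regions up to 61513625 had 6 peaks in HCT116, 2 in COLO320DM, 1 in COLO205 and none in HT29. The region from 61542160 to 61542407, 27.7 kb from the 5′ end, was in all 4 long lists, with folds of 7.42 in COLO320DM, 6.85 in HT29, 6.26 in COLO205 and 5.17 in HCT116.

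Across the 23 regions of all 4 long lists, COLO205 had the highest fold in 14, COLO320DM in 4, HCT116 in 3 and HT29 in 2. COLO205 was also highest in 48.0% of all regions that the 4 lists share. Median folds were 8.49 in COLO205, 6.40 in HCT116, 6.15 in COLO320DM and 5.56 in HT29, and in the other mostly input-covered shared regions they were 8.10, 6.72, 6.35 and 5.90. Each pair of lines was compared at the 20 regions with at least 1 input fragment, within the same tolerance, in all 4 lines, by the ratio of their enrichments without the pseudocount and its approximate 95% interval from the read counts. The interval excluded 1 in 4 of 120 comparisons, or 3.33%, against 3.77% over all such regions. COLO205 had the higher value in all 4, at KDM6B over HT29 and COLO320DM, and at ARID1A and EP300 over COLO320DM. Over all such regions it was the higher in 169 of the 170 intervals that excluded 1 and involved it, so the direction is that of the lists as a whole. At CHD6 from 40161697 to 40162017 and DIDO1 from 61510537 to 61511209, the regions with the most reads, no interval excluded 1. The widest gap there was HT29 over COLO205 at DIDO1, 0.478 times (0.189 to 1.21). In the other 116 comparisons a difference between lines was not detectable at this depth, and the bounds of an interval lay a median of 4.54 times above and below its ratio.

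**Figure D4:**
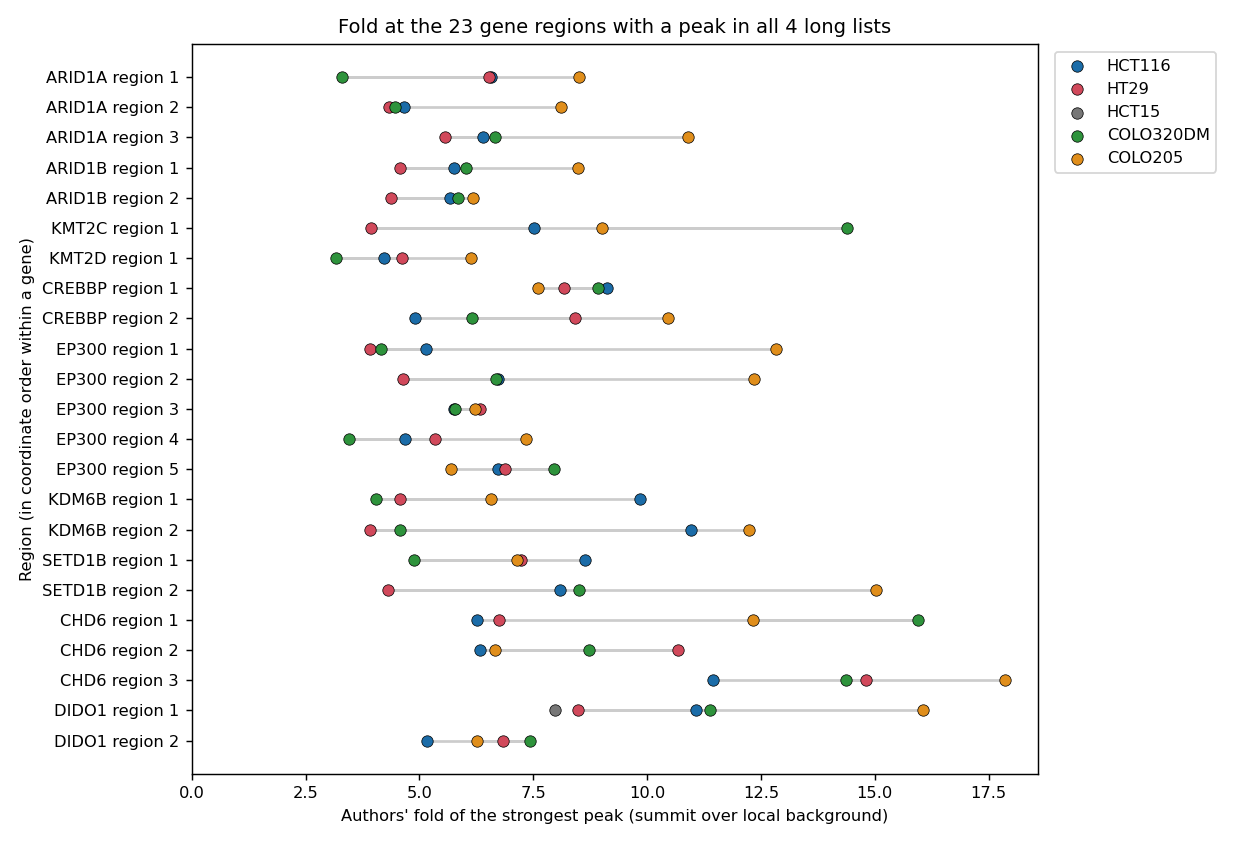
Authors' fold of the strongest peak of each line (horizontal axis) at the 23 regions of these genes with a peak in all 4 long lists (rows). COLO205 is highest in 14 of the 23, and CHD6 region 3 and DIDO1 region 1 are high in every long list. HCT116 and COLO205 stand above HT29 and COLO320DM at KDM6B region 2, for HCT116 not beyond counting error. For COLO205 the direction is that of the lists as a whole. Intervals excluded 1 in 3.33% of the comparisons of these genes, against 3.77% over all such regions.

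The local input recovered for these regions differed between lines more than the fold did. Local input had a median of 3.07 fragments per M input reads in COLO320DM, 2.23 in HCT116, 1.04 in HT29 and 0.374 in COLO205. The other mostly input-covered shared regions had 1.83, 1.78, 1.29 and 0.370. COLO320DM was highest in 13 of the 23 and HCT116 in 9, against 45.6% and 38.6% of all shared regions. COLO205 was lowest in 21, and in 77.7% of all shared regions. IP reads followed the same order, with medians of 22.4 per M in COLO320DM, 18.1 in HCT116, 8.94 in HT29 and 5.69 in COLO205. COLO320DM had the most IP reads per M in 17 of the 23 regions, against 46.2% of all shared regions. Fewer transcripts and a smaller share of the library on mRNA cannot be told apart here.

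**Figure D5:**
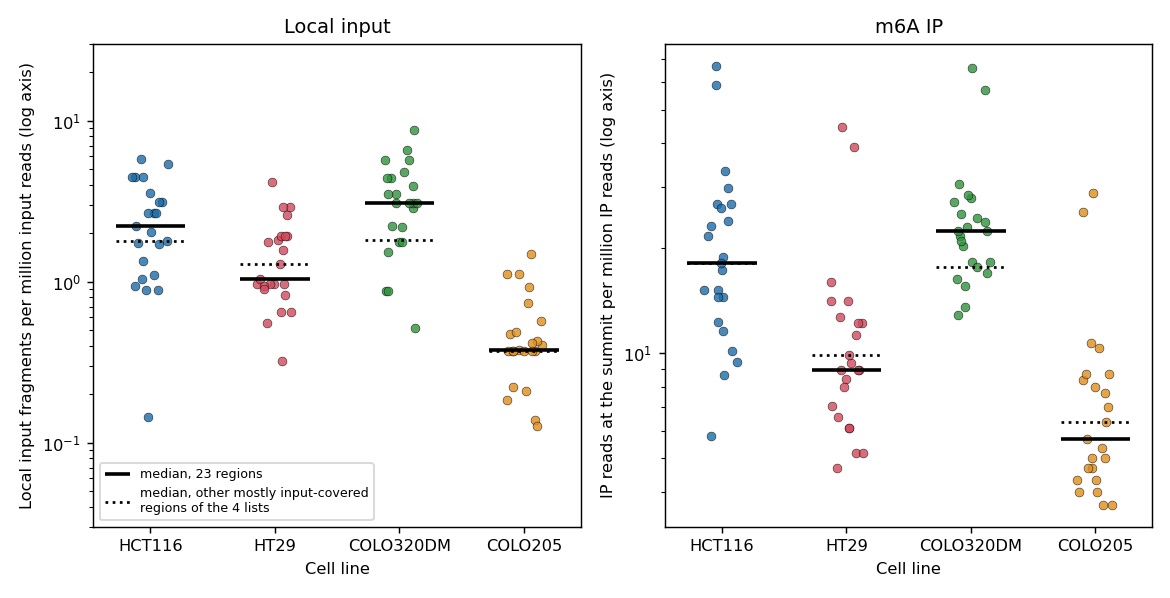
Local input fragments per M input reads (left, log axis) and IP reads at the summit per M IP reads (right, log axis) at the 23 regions of these genes in all 4 long lists, by cell line. Solid bars are medians over the 23 regions and dotted bars medians over the other mostly input-covered shared regions, and COLO205 is lowest in both panels for genes and other regions alike.

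Of the strongest 905 peaks of each list, 11 were in these genes in COLO320DM, 9 in HCT116, 9 in COLO205, 6 in HT29 and 1 in HCT15. CHD6 gave 3 of those in COLO320DM, 2 in HT29, 2 in COLO205 and 1 in HCT116, and DIDO1 gave 2, 2, 1 and 1, besides the HCT15 peak. ARID1A gave 2 each in HCT116 and COLO205 and 1 in COLO320DM, and KDM6B gave 2 in HCT116 and 1 in COLO205.

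The span limits decided the place of few peaks. The summit closest to a limit from inside was in ARID1B in COLO320DM, 7 nt from the limit, with a fold of 3.89. Outside, the closest were a HCT116 peak 94 nt below the EP300 span with a fold of 3.77, a HCT116 peak 307 nt below that of ARID1B with a fold of 7.29, and a COLO320DM peak 808 nt below that of SETD1B with a fold of 7.29. At the other 17 span ends the nearest outside peak lay more than 5 kb away.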

How the data were processed

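The labels describe 10 samples, 1 m6A IP and 1 input for each of 5 lines, and only IP peak lists were analysed. Per the submitters' processing notes, cutadapt, FastQC, BWA, MACS2 and the build hg19 were used, with no versions or parameters. Control and thresholds are not given in the sources used here. Each peak of the deposited lists carries a −log10 p, a −log10 q and a fold, the ratio of IP to background. Their deposited score was not used. Positions are printed counting from 1.

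IP reads and local background were recovered from fold and −log10 p under the model of MACS2 (pseudocount 1, Poisson). Every peak had a whole number of reads that met its −log10 p within 0.001, in HCT15 with each read counted as 0.322, as the caller does for an IP deeper than its control. Each line's own input was assumed to be its control. Input fragments are the recovered background over the weight of 1 fragment, not a count at the site, and need not be whole. Values under 1 fragment and above the lowest of the list all fell on steps of a 10-kb window. A background can therefore come from more than the peak itself. Depths assume the shortest peak as fragment length and a genome of 2.7 Gb, and inputs recovered in this way ranged from 1.61 M reads (HCT15) to 5.41 M (COLO205), HCT116 having 2.24 M, COLO320DM 2.28 M and HT29 3.10 M. The code was tested on simulated data.

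Regions are peaks merged at 1 nt of overlap. Gene spans came with the choice of genes. Members and lists were chosen with earlier results of these data known. Strands came from RefSeq promoters (GRCh38.p14, no coordinates used). Within a gene, the strongest peak of each line by −log10 p was named, with up to 3 regions of all 4 long lists by their lowest percentile of fold, and every HCT15 peak. Others named were chosen after their values were seen. With 1 library per line no test was made. Intervals on shares are exact Clopper-Pearson, the limit for a count of 0 is 3 counts, on reads exact Poisson, and on enrichment ratios a normal approximation on the log scale. All cover counting error only, and reads may include PCR copies. Neighbours within 1 kb, enrichment ratios between lines and the mostly input-covered background were added after the data were seen. Positions by strand used 8 genes, and other chromatin genes were not analysed here. Tools were bedtools 2.31.1, scipy 1.17.1, numpy 2.4.6, pandas 2.3.3, matplotlib 3.10.9 and Python 3.11.15.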

Additional observations from a re-analysis of the deposited data

How the results depend on the processing

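Of 87 alternative values, 70 stayed within the counting interval of the reported share, 1.5 times the reported count or, for the median fold, 1 SD of the genes' peak folds. That SD is the spread of single peaks, so it is a wide bound for a median. Of the 17 values outside these bounds, 15 came from equally many strongest peaks, 905 per list. There the genes had 11 peaks in COLO320DM, 9 in COLO205, 9 in HCT116 and 6 in HT29, or 1.22%, 0.994%, 0.994% and 0.663% of the list. The input-covered share was 100% in HCT116. The median fold was 8.92 in COLO320DM, 9.11 in HCT116, 9.58 in HT29 and 12.3 in COLO205, and the last 10% of the span held 25.0% of HT29 and 71.4% of COLO320DM peaks. The list is smaller by construction. With a −log10 q of at least 5 the COLO320DM share of the list was 1.08%, and the cause was not tested. With 1 threshold of local input the COLO205 input-covered share was 16.2%. In its deeper input that threshold was higher in fragments. Its median local input at the regions of all 4 long lists was also the lowest, at 0.374 fragments per M. The part of each was not tested. The share of regions in all 4 long lists was 21.98% with reciprocal overlap of 50%, 24.4% with summits within 100 nt, 23.8% with a −log10 q of at least 5 and 23.9% with a fold of at least 4. Over all merged regions these shares were 4.52%, 5.52%, 6.96% and 5.97% in the same order. Leaving out 1 long list gave 32.4% to 36.8% of regions in the remaining 3, against 9.52% to 14.0% of all merged regions. No paired analysis was possible because each line has 1 IP library. Depth limits the comparisons: most input values are under 10 fragments.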
